A study of Homo sapiens with 6 samples.

Results

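FFAR1, AGTR1, ACKR4 and TLR2 are 4 receptors of the cell surface that were targeted in a pooled CRISPR knockout screen of synovial sarcoma cells. The members were all guides assigned to these genes in the count table, 40 of the 3470 guides that target a gene, with 10 guides for each of the 4 genes among 348. They were divided by guide number into a first set (up to sgRNA_1495) and a second set (from sgRNA_1496 on). FFAR1, ACKR4 and TLR2 have 5 guides in each set, and all 10 guides of AGTR1 are in the second set, so the members comprise 15 first set and 25 second set guides.

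The screen used HS-SY-II Cas9, a synovial sarcoma cell line that expresses the Cas9 nuclease, transduced with lentiviral guides and selected with puromycin. Day 0 was the aliquot taken after selection (2 libraries). The remaining cells were kept in culture for 14 days (2 libraries, in vitro) or were placed under the skin of athymic nude mice, which lack mature T cells, until a tumor had grown (2 libraries, in vivo). All groups share the line, the nuclease and the library, only 1 cell line was screened, and the study's methods do not state whether a tumor library holds 1 tumor or several. The labels number the tumor libraries 1 and 2, and those numbers are used here, whereas a picture in the study's appendix places both under replicate 1. The genes had been chosen by the study because synovial sarcoma lines depended on them more than other cell lines did in public screens, and the comparisons asked which of them the cells needed in culture and in a tumor.

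FFAR1 is a G protein-coupled receptor for medium- and long-chain fatty acids, best known from pancreatic beta cells, where it raises insulin secretion. AGTR1 is the type 1 receptor for angiotensin II and couples mainly to Gq, and ACKR4 is an atypical chemokine receptor that binds and clears CCL19, CCL21 and CCL25 without signaling through G proteins. TLR2 is a Toll-like receptor that pairs with TLR1 or TLR6 to sense bacterial lipoproteins and signals through MYD88 to NF-kappa-B. In a pooled screen a guide is a tag for the cells that carry it: where loss of the target slows growth, the share of that guide falls.

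In the human annotation (GENCODE on hg38) FFAR1 lies at chr19:35347902-35353864 on the plus strand, and its coding sequence of 900 bases is contained in exon 2 of 2. AGTR1 lies at chr3:148697784-148743008 (plus strand), with 1077 coding bases in exon 3 of 3. ACKR4 lies at chr3:132597270-132618967 (plus strand), with 1050 coding bases in exon 2 of 2, and that exon's coding part falls in an intron of ACAD11, which runs on the opposite strand. TLR2 lies at chr4:153684070-153706260 (plus strand), with 2352 coding bases in exon 3 of 3. Each of the 4 receptors is thus encoded in a single exon. Guide sequences were not used here, so the position of each cut is not given.

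Depth was 3394352 to 21854232 counts per library, and all 40 guides passed the filter of a mean of at least 30 counts at day 0. Abundance is given as CPM, the count over the TMM-scaled library size times 1000000. The fold change in a single library is its log2(CPM + 1) minus the mean of the day 0 libraries, and the fold change of a group is from 1 edgeR fit of all 6 libraries. On this scale 0 is the middle of all guides, and the 183 non-targeting guides, which match no human gene, had a median of 0.50 in vitro and 0.57 in vivo (5th to 95th percentile -0.15 to 1.18 and -0.51 to 1.96). The medians over the whole library were 0.41 and 0.52 for first set guides, and -0.57 and -0.61 for second set guides. Day 0 replicates correlated with a Pearson r of 0.67, cultures 0.85 and tumors 0.66 across guides, which are not independent replicates. A guide's value is its share of the pool, so a fall of 1 guide and a rise of the others cannot be told apart.

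FFAR1 was the only receptor of the 4 that was called depleted. Each of its second set guides was lower than at day 0 in both cultures and both tumors (median log2 fold change -2.05 after 14 days in culture, -3.18 in tumors), whereas its first set guides had medians of 0.57 and 0.95, close to the non-targeting guides. By robust rank aggregation, which asks whether the guides of a gene stand unusually near the low end of all ranked guides, FFAR1 was depleted in vivo (median of 10 guides -1.05, gene p = 0.00399, computed exactly, FDR 0.142, called under 0.2). In vitro its FDR was 0.313 (exact p = 0.0173, median -0.51). Both medians fall in the gap between the second set and the first set guides, where no FFAR1 guide lies. Of all 348 genes, 4.02% were called depleted in vitro and 3.16% in vivo.

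The guide sgRNA_1813 had the lowest values of the 40. It had 3836 and 357 counts at day 0, 4 and 13 counts in the cultures, and 4 and 2 counts in the tumors. These are 156 and 69.4 CPM at day 0 against 1.04 and 2.88 CPM in vitro and 1.11 and 0.304 CPM in vivo. All 4 late libraries therefore lay far below both day 0 libraries, and the exact Poisson 95% interval of the 2 counts in tumor 2 (0.242 to 7.22 counts) covers counting error only. The fitted log2 fold change was -5.83 ± 1.45 (SE) in vitro and -7.37 ± 1.58 in vivo, with edgeR adjusted p of 0.305 and 0.0576.

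The other second set guides of FFAR1 were less low, and unequally so. sgRNA_1814 was at 399.9 and 202 CPM at day 0, 34.0 and 35.0 CPM in the cultures and 55.4 and 43.8 CPM in the tumors. Its 4 late values lay close together, and its log2 fold change was about the same in vitro (-3.12 ± 0.70, SE) and in vivo (-2.60 ± 0.68). sgRNA_1815 went from 297 and 207 CPM to 77.0 and 45.2 CPM in vitro and 17.7 and 44.4 CPM in vivo.

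For sgRNA_1811 and sgRNA_1812 the late libraries of 1 group were far apart. sgRNA_1811 was at 221 and 108 CPM at day 0, 36.0 and 87.4 CPM in vitro and 12.8 and 1.83 CPM in vivo. sgRNA_1812 was at 174 and 71.4 CPM at day 0, 13.1 and 61.4 CPM in vitro and 2.77 and 24.0 CPM in vivo. In culture replicate 2 both guides were only slightly under day 0 replicate 2, and the lower tumor was tumor 2 for sgRNA_1811 and tumor 1 for sgRNA_1812.

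**Figure D1:**
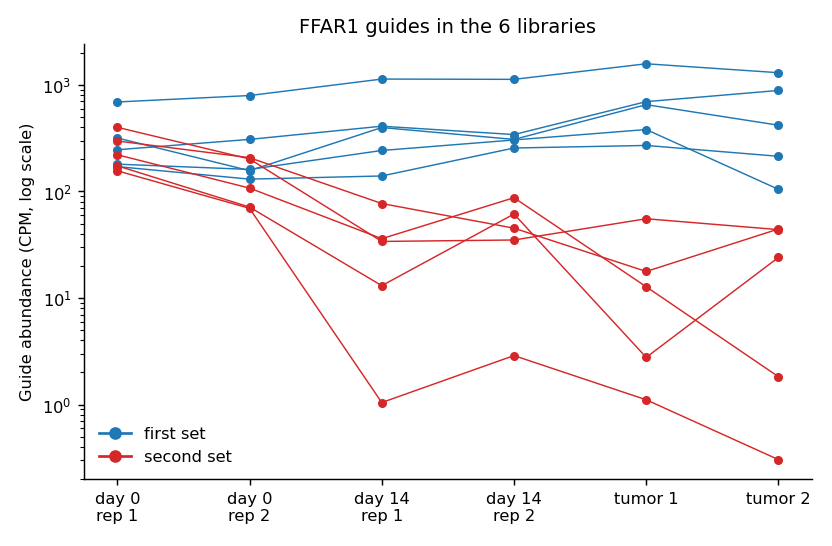
Abundance of the 10 FFAR1 guides in CPM (log scale) in the 6 libraries, with 1 line per guide. The 5 guides of the first set (blue) stay at or above the lower of their day 0 values except sgRNA_456 in tumor 2, and the 5 of the second set (red) lie below both day 0 values in every culture and tumor.

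All 5 second set guides of FFAR1 lay below both day 0 libraries in both cultures (5 of 5) and again in both tumors (5 of 5). Among all second set guides 52.3% did so in vitro and 46.6% in vivo, so this order alone is common in that set. All 5 were also below the lower quartile of the second set, which was -1.26 in vitro and -1.69 in vivo. Summed over the 5 guides, FFAR1 abundance was 1249 and 658 CPM at day 0, 161 and 232 CPM in vitro and 89.8 and 114 CPM in vivo.

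The same guides already differed between the day 0 libraries. All 5 were lower in day 0 replicate 2 than in replicate 1, by 0.52 to 1.27 on the log2 scale, with a median of -1.03 that was the 5th lowest of the 348 second set medians. Against day 0 replicate 1 alone the median log2 fold change of the 5 guides was -3.52 in culture 1, -2.69 in culture 2, -4.01 in tumor 1 and -3.16 in tumor 2. Against day 0 replicate 2 alone it was -2.36, -2.17, -3.48 and -2.20 in the same order. All 20 values against each day 0 library were negative, the smallest being -0.21 (sgRNA_1812 in culture replicate 2 against day 0 replicate 2). Among the second set guides of other genes, the 402 with an in vivo log2 fold change under -2 had a day 0 difference of -0.39 in the median, and the remaining 1525 one of -0.07. The part of the day 0 difference in the result was not tested.

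In the first set, each FFAR1 guide had a fitted fold change above 0 in vitro and in vivo, and in single libraries sgRNA_456 was below 0 in tumor 2 (-0.70) and sgRNA_460 in culture 1 (-0.10). sgRNA_457, the most abundant, was at 691 and 795 CPM at day 0, 1134 and 1127 CPM in vitro and 1578 and 1302 CPM in vivo, so every late library was above day 0. sgRNA_458 had 246 and 308 CPM at day 0, 410 and 342 CPM in vitro and 696 and 887 CPM in vivo. Its log2 fold change of 1.51 ± 0.42 (SE, edgeR adjusted p = 0.0868) was the highest of the FFAR1 guides in vivo and within the range of the non-targeting guides. The fold changes of all 5 ran from 0.39 to 0.68 in vitro and from 0.51 to 1.51 in vivo, all between the 5th and 95th percentile of the non-targeting guides.

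Summed over all of its guides, FFAR1 was no less abundant in tumors than at day 0. The first set alone was at 1607 and 1551 CPM at day 0, 2324 and 2337 CPM in vitro and 3579 and 2926 CPM in vivo. All 10 guides together were at 2855 and 2208 CPM at day 0 and 3669 and 3040 CPM in vivo, above both day 0 libraries. Of these sums sgRNA_457 alone gave 691 and 795 CPM at day 0 and 1578 and 1302 CPM in vivo. On the same scale the non-targeting guides also had an in vivo median above 0 (0.57). The second set median lay 2.62 below the first in vitro and 4.14 below in vivo. For the 299 genes with at least 3 guides in each set, the second minus the first set median was -1.02 and -1.25 in the middle and -3.93 and -4.15 at the 5th percentile. FFAR1 had the 16th widest gap of these genes in vivo and the 30th widest in vitro.

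**Figure D2:**
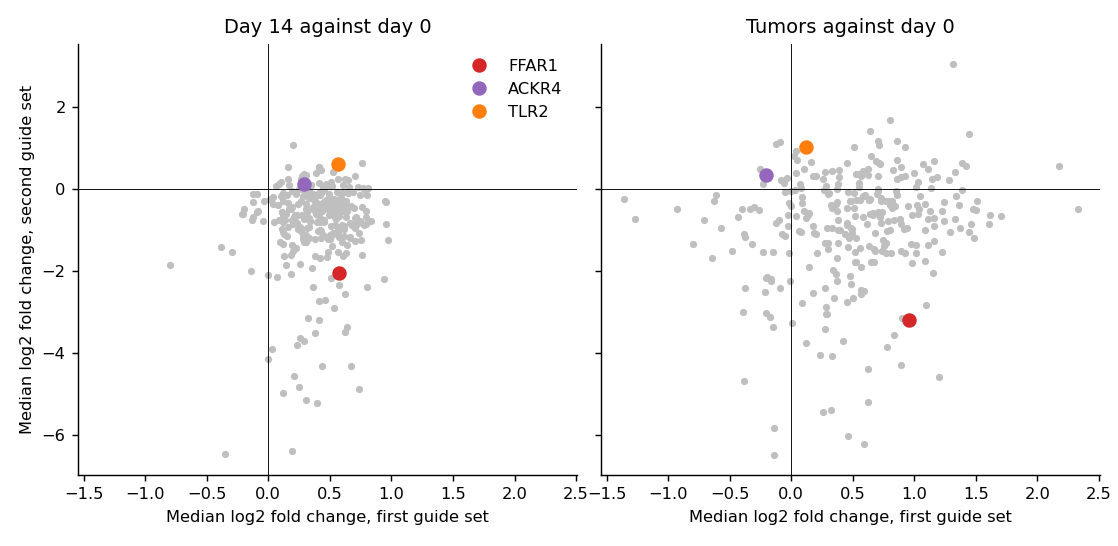
Each point is a gene with guides in both sets (299 genes), placed by the median log2 fold change of its first set guides (horizontal axis) and of its second set guides (vertical axis), in vitro on the left and in vivo on the right. FFAR1 (red) has first set medians of 0.57 and 0.95 and second set medians of -2.05 and -3.18, while ACKR4 (purple) and TLR2 (orange) have second set medians above 0 in both.

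With the second set alone, FFAR1 was called depleted in vitro as well (FDR 0.163) and in vivo (FDR 0.0474). That set alone called 6.9% of the 348 genes in vitro and 10.3% in vivo, and with the first set alone the FDR of FFAR1 was 1 in both. The second set call in vitro was lost without any 1 of the day 0 and day 14 libraries (median -1.72 to -3.10). It was also lost when non-targeting guides set the scale (FDR 0.255, median -2.58). The in vivo call on all 10 guides was lost without any 1 of the 4 libraries compared, while the median was below 0 each time. It was -0.62 without day 0 replicate 1, -1.29 without day 0 replicate 2, -1.53 without tumor 1 and -0.80 without tumor 2. With the second set alone the in vivo call was lost without day 0 replicate 1 (median -2.63) and without tumor 1 (median -2.78). Each fit without a library leaves 1 library in a group. Fewer genes of the whole library were called depleted in each of them, so the lost calls are not particular to FFAR1.

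The difference between tumor and culture was not called for FFAR1. For tumors against day 14 the median was -1.46 over its second set and 0.35 over its first, with a depletion FDR of 1 over all 10 guides. The depletion in both arms is measured against the same day 0 libraries.

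AGTR1 guides on the whole changed from day 0 about as the non-targeting guides did, although all of them belong to the second set, whose medians were below 0. Their median log2 fold change was 0.41 in vitro and 0.58 in vivo, which is -0.10 and 0.00 relative to the non-targeting guides, and 9 of 10 in vitro and 8 of 10 in vivo lay within the 5th to 95th percentile of those guides. AGTR1 was not called in either direction (depletion FDR 1 in vitro and in vivo, enrichment FDR 1 and 0.993). Enriched genes were 0% of the 348 in vitro and 0.287% in vivo.

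One AGTR1 guide, sgRNA_3297, had the largest in vivo log2 fold change of all 3607 guides, through 1 tumor. Its counts were 2109 and 982 at day 0, 438 and 840 in the cultures, 35474 in tumor 1 and 465 in tumor 2. On the scaled values this was 85.9 and 191 CPM at day 0, 114 and 186 CPM in vitro, 9834 CPM in tumor 1 and 70.8 CPM in tumor 2. It was the most abundant guide of tumor 1, with 0.796% of all counts (Wilson 95% interval 0.788% to 0.804%), and ranked 2770 in tumor 2. The fitted change of 5.16 ± 1.76 (SE) had an edgeR adjusted p of 0.129, and the tumors differed by 7.10 on the log2 scale, against a median of 1.02 over all guides.

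This guide made up 67.9% of the summed AGTR1 abundance in tumor 1 and 2.48% in tumor 2. Without it the AGTR1 sum was 4640 CPM in tumor 1 and 2778 CPM in tumor 2, against 1941 and 1868 CPM at day 0. The median of the remaining 9 guides was 0.52 in vivo. The gene median thus moved little, and the high value belongs to a single guide in a single tumor.

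Of the other AGTR1 guides, sgRNA_1909 had the highest and sgRNA_1907 the lowest fold change in vivo. sgRNA_1909 was at 436 and 436 CPM at day 0, 664 and 628 CPM in vitro and 2426 and 944 CPM in vivo. All 4 late libraries were above day 0 and both tumors above both cultures, with a log2 fold change in vivo of 1.95 ± 0.55 (SE) and an edgeR adjusted p of 0.0900. That value was just inside the 5th to 95th percentile of the non-targeting guides (-0.51 to 1.96). sgRNA_1907 was at 106 and 159 CPM at day 0, 103 and 211 CPM in vitro, and 77.9 CPM in tumor 1 but 4.26 CPM in tumor 2, so its value of -1.69 ± 1.19 rested on tumor 2.

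**Figure D3:**
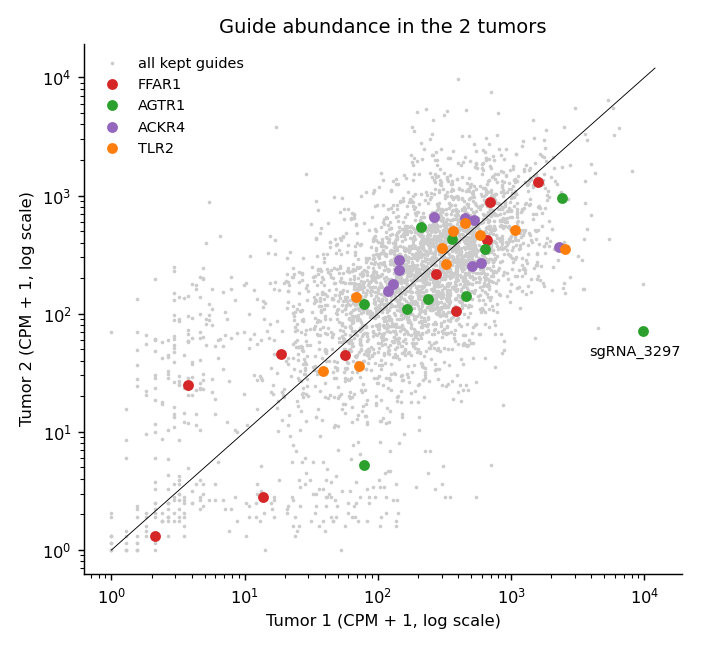
Abundance of every kept guide (gray) in tumor 1 (horizontal axis) and tumor 2 (vertical axis), both as CPM + 1 on log scales, with the line of equal abundance and the 40 guides of the 4 receptors in color. The AGTR1 guide sgRNA_3297 lies at 9834 CPM in tumor 1 and 70.8 CPM in tumor 2, and the FFAR1 guide sgRNA_1813 lies in the lower left corner at 1.11 and 0.304 CPM.

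The AGTR1 guides form 2 runs, sgRNA_1906 to sgRNA_1910 and sgRNA_3296 to sgRNA_3300. Their medians were 0.57 and 0.18 in vitro and 0.35 and 0.63 in vivo. In neither run was the median below 0, and 1 of 10 AGTR1 guides was under the second set's lower quartile in vivo.

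ACKR4 was not called, and 9 of its 10 guides in vitro and 7 of 10 in vivo lay within the 5th to 95th percentile of the non-targeting guides. The first set had medians of 0.29 after culture and -0.21 in tumors, and the second set 0.13 and 0.33. Relative to the median of the non-targeting guides these were -0.22 and -0.78 in the first set and -0.38 and -0.24 in the second. Over all 10 guides the medians were 0.22 and 0.13, and the depletion FDR was 1 in each comparison. The second set of ACKR4 was not lower than its first set in vivo (second minus first 0.54), where the middle of the 299 genes was -1.25.

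Within ACKR4 the widest values came again from tumor 1. sgRNA_2558 was at 289 and 301 CPM at day 0, 361 and 544 CPM in vitro, 2277 CPM in tumor 1 and 368 CPM in tumor 2, which gave 2.16 ± 0.79 (SE, edgeR adjusted p = 0.142). sgRNA_19 was at 175 and 278 CPM at day 0, 397 and 542 CPM in vitro and 450 and 648 CPM in vivo, above day 0 in all late libraries (1.28 ± 0.46, adjusted p = 0.139 in the same fit). Its in vivo value was within the range of the non-targeting guides. In the other direction, sgRNA_2560 was at 333 and 318 CPM at day 0, 123 and 283 CPM in vitro and 129 and 178 CPM in vivo. Its tumors lay below day 0, yet the value of -1.08 ± 0.55 had an edgeR adjusted p of 0.254.

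TLR2 guides had one of the higher medians of the library in vitro, and no call. The median of the 10 guides was 0.59, the 4th highest of 348, with 0.57 in the first and 0.61 in the second set, an exact enrichment p of 0.0524 and an FDR of 1. It exceeded the median of the non-targeting guides by 0.09. In vivo the median was 0.39, with 0.12 in the first and 1.04 in the second set (enrichment FDR 0.993). Without culture replicate 2 the in vitro enrichment FDR was 0.0873, and it was not called in the fit of all libraries.

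Second set guides of TLR2 differed among themselves, from -2.02 to 2.10 in vivo. sgRNA_2071 was at 310 and 121 CPM at day 0, 72.3 and 33.3 CPM in vitro and 71.5 and 34.8 CPM in vivo, below day 0 in all 4 late libraries (-2.03 ± 0.86 in vitro and -2.02 ± 0.86 in vivo, edgeR adjusted p = 0.576 and 0.189). Like the second set guides of FFAR1 it was lower in day 0 replicate 2, by 1.35 on the log2 scale. sgRNA_2072 was at 80.8 and 100.1 CPM at day 0, 108 and 174 CPM in vitro and 37.4 and 31.5 CPM in vivo. It was the only guide of the 40 whose tumors lay below day 0 while its cultures lay above, with a tumor against day 14 change of -2.03 ± 0.78 that did not pass (edgeR adjusted p = 0.332).

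A pair of further TLR2 guides had their highest values in tumors. sgRNA_2074 was at 243 and 264 CPM at day 0, 417 and 357 CPM in vitro and 1063 and 509 CPM in vivo, higher in both tumors than in any other library (1.63 ± 0.48, edgeR adjusted p = 0.0984). The fitted value was within the range of the non-targeting guides. sgRNA_2075 was at 374 and 301 CPM at day 0, 417 and 274 CPM in vitro, 2545 CPM in tumor 1 and 352 CPM in tumor 2. Tumor 1 alone was high, and tumor 2 lay between the day 0 libraries. In the first set, sgRNA_1301 was at 149 and 268 CPM at day 0, 660 and 387 CPM in vitro and 363 and 498 CPM in vivo, with the highest in vitro value of the members (1.33 ± 0.50, edgeR adjusted p = 0.508).

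**Figure D4:**
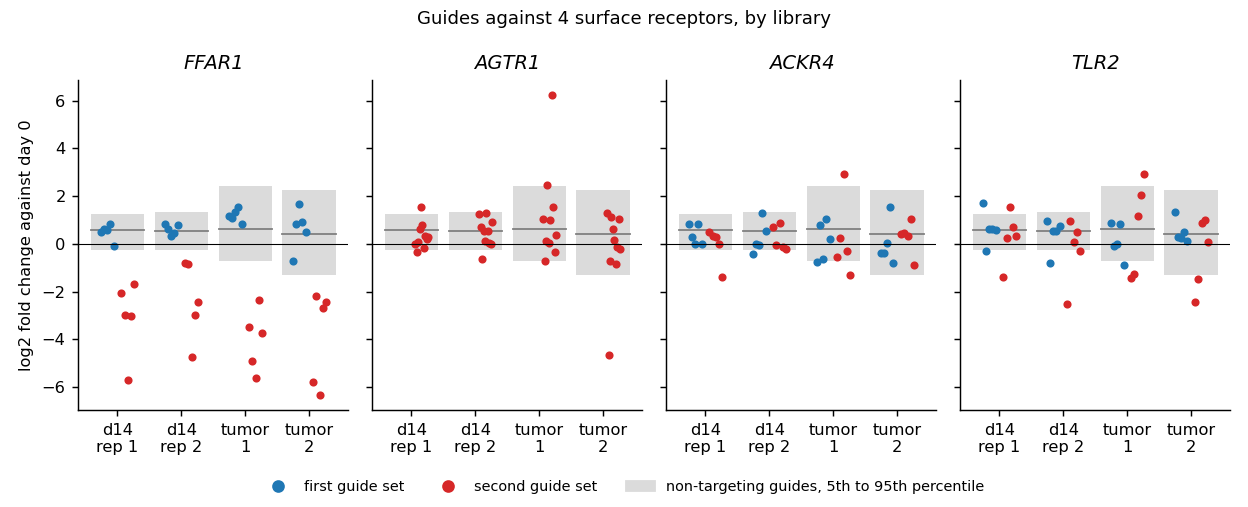
Log2 fold change against the mean of the day 0 libraries for each guide of the 4 receptors in the 2 cultures (d14) and the 2 tumors, with first set guides in blue and second set guides in red. Gray bars span the 5th to 95th percentile of the 183 non-targeting guides with a line at their median, and only the second set of FFAR1 lies wholly below the bar in every library.

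Tested guide by guide, 0 of the 40 guides passed an edgeR adjusted p of 0.05 in any comparison. At an unadjusted p under 0.05 there were 4 lower and 1 higher in vitro, 5 lower and 8 higher in vivo and 2 lower and 4 higher for tumors against day 14. Of all guides, the shares at that unadjusted p were 7.18% lower and 1.22% higher in vitro, 12.8% and 12.9% in vivo, and 5.54% and 8.54% for tumors against day 14. DESeq2 called 2 guides lower in vitro, both of FFAR1, and 4 lower (all of FFAR1) and 7 higher in vivo, with 1 of FFAR1 and 2 each of AGTR1, ACKR4 and TLR2 among the higher. Its calls over all guides were 3.47% lower and 0.0832% higher in vitro, 10.3% and 10.9% in vivo, and 2.11% and 3.91% for tumors against day 14. Over the whole library edgeR called 0% lower and 0% higher in vitro, 1.14% lower and 0.554% higher in vivo, and 0% lower and 0.0277% higher for tumors against day 14.

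Counted by order alone, 8 of the 40 guides had both cultures below both day 0 libraries and 17 had both above, against 31.5% and 27.1% of all guides. In vivo 10 of 40 lay below and 12 above, against 30.6% and 23.9%. FFAR1 second set guides were 5 of the 8 and 5 of the 10 that lay below. For tumors against day 14, genes called depleted and genes called enriched were 0.287% each, and none of the 4 receptors was among them, with FDR of 1 in both directions.

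Other genes were counted in 4 lists drawn up by function. Of 3 other G protein-coupled receptors in the library (GPR149, GPR85 and GRM7) none was called, and their in vivo medians were 0.10, -0.05 and 0.20. GRM7 is a glutamate receptor, and GPR149 and GPR85 are receptors without an established ligand. Their in vivo medians in the first and second set were 0.30 and -0.10 for GPR149, 0.86 and -0.15 for GPR85, and 0.58 and -0.68 for GRM7. The median over all guides of each gene thus lies between its sets. On this scale the non-targeting guides had a median of 0.57 in vivo. Over this list the in vivo median of gene medians was 0.10, against 0.01 over all genes.

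Of 18 other receptors and proteins of the cell surface 1 was called, BMPR2, a type II receptor for bone morphogenetic proteins. Its guides were enriched in vivo (median 1.99, FDR 0.0025). The lowest in vivo medians of the list were those of the decoy receptor TNFRSF6B (-0.67) and the costimulatory receptor CD27 (-0.66), and the next highest was the collagen receptor DDR1 (0.91). All 10 guides of TNFRSF6B are in the second set. First and second set medians in vivo were -0.16 and -2.19 for CD27, 1.33 and 0.41 for DDR1, and 1.31 and 3.06 for BMPR2. The median of the list was 0.05 after culture and 0.13 in tumors, and that of all genes -0.05 and 0.01.

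A list drawn up as ligands and enzymes of the receptors' pathways had 4 genes in the library. None of them encodes a ligand named above for the 4 receptors. Among them CSH2, which encodes a placental lactogen, was depleted in vivo (median -2.38, FDR 0.0337), and this call says nothing about a pathway of the receptors. All 10 guides of CSH2 are in the second set, and it belongs to a cluster of near-identical growth hormone genes. Whether its guides match others of that cluster was not tested. The fatty acid transporter CD36, which also stands in the list of surface proteins, had a median of -0.57, the Wnt inhibitor DKK1 0.29 and the Wnt agonist RSPO3 0.67, with no call. Their first and second set medians in vivo were 0.17 and -0.89 (CD36), 1.24 and -0.79 (DKK1), and 1.42 and 0.57 (RSPO3). Of 6 signaling proteins downstream, none was called. The lipid kinases PIK3C2B and PIP5KL1 were lowest (-0.57 and -0.24), and the NF-kappa-B regulator NKIRAS1 and the kinase PTK2B highest (1.39 and 0.67). By set these medians were 0.67 and -1.77 (PIK3C2B), 0.14 and -1.91 (PIP5KL1), 1.44 and 1.34 (NKIRAS1), and 1.03 and -0.62 (PTK2B). Several of the pooled medians thus describe neither set.

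The genes with medians nearest to each receptor were found by the mean absolute difference of 4 values, the median guide log2 fold change in each culture and tumor. For FFAR1, whose 4 medians were -0.89, -0.25, -0.74 and -1.43, they were MFSD3 (0.15 away), EIF4EBP2 (0.17) and C22orf23 (0.24). Each of these FFAR1 medians falls in the gap between its second set and its first set guides. No FFAR1 guide lies there, so these genes are near the median only and need not resemble its guides. The nearest to AGTR1 (0.24, 0.53, 0.69 and 0.01) were ERC1, PRPS1L1 and PTK2B, 0.11 to 0.14 away. For ACKR4 (0.29, -0.02, -0.04 and 0.18) they were NIPAL2, GPR85 and RNF135, 0.03 to 0.09 away, and for TLR2 (0.61, 0.51, 0.42 and 0.28) DYDC1, SPATA4 and PON2, 0.14 to 0.16 away.

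The sign of the smaller medians depended on the scaling. When the libraries were scaled to the non-targeting guides, the median of all guides moved to -0.52 in vitro and -0.53 in vivo. The in vivo medians were then 0.04 for AGTR1, -0.42 for ACKR4, -0.15 for TLR2 and -1.63 for FFAR1, and the in vitro medians -0.12, -0.31, 0.06 and -1.06. Under this scaling the in vivo FDR of FFAR1 was 0.266. Of the 40 guides 2, both of FFAR1, passed edgeR's adjusted p as lower in vivo. The share of all guides called under this scaling is not given here, so that count cannot be judged against the whole library.

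The gene test counts guides and not libraries, and with 2 cultures and 2 tumors the spread between them is not part of its FDR. An exact permutation test over 2 against 2 libraries cannot give a two-sided p below 0.333.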

How the data were processed

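Guide counts of 6 libraries were analysed. The authors deposited whole-number counts per guide, made with MAGeCK from reads mapped to their guide library, and a table of normalized signal that holds the same counts times a constant for each library. Not given in the sources used here are how these constants were set and the versions of MAGeCK and hg38, which the submitters' processing notes name. The 4 receptors, the gene lists and the split by guide number were chosen with earlier results of these data known.

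Guides were kept if the day 0 libraries averaged 30 counts or more (3607 of 3653), scaled by TMM and tested with edgeR 4.0.16 in R 4.3.3 (quasi-likelihood test, 1 fit of all libraries, common dispersion 0.303, Benjamini-Hochberg at 0.05 over all kept guides). For robust rank aggregation guides were ranked by one-sided p. Alpha, the share of guides that enter, was the share with a one-sided FDR under 0.25, bounded by 0.01 and 0.5 (depletion: 0.0435 at day 14, 0.166 in tumors). The gene p was computed exactly, and Benjamini-Hochberg ran over 348 genes, with calls under 0.2. Both steps were run on simulated data. The simulated guide counts had a lower dispersion than the 0.303 of these data, so that run does not measure how many changed guides would be called here. Named genes were the 4 receptors, list genes called in any comparison, the 2 lowest and 2 highest in vivo medians of each list, and the 3 nearest genes of each receptor. Guides named singly were chosen after their values were seen. The study describes transduction in duplicate and several mice per replicate, but nothing in the labels says that the tumors came from separate transductions. The p-values of single guides therefore measure the spread between these samples only, and the gene p-values do not measure it. Same-numbered libraries deviated from their group means with a correlation of 0.0694 (day 0 and day 14), 0.00198 (day 0 and tumors) and 0.00252 (day 14 and tumors), and the main fit has no replicate block. Alternatives were DESeq2 1.42.0, limma 3.58.1 on log2 of the deposited normalized signal plus 1, other scalings and filters, replicate blocks by label and with both tumors in the block of replicate 1, each library left out and each guide set alone. The second set combined with another scaling or with a library left out was added after seeing the data. PCR reads carry no molecular identifiers, so intervals cover counting error only. Tables and plots used Python 3.11.15 with pandas 2.3.3, scipy 1.17.1 and matplotlib 3.10.9.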

Additional observations from a re-analysis of the deposited data

How the results depend on the processing

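For FFAR1 depletion in vivo (FDR 0.142) the call was lost with scaling to the non-targeting guides (0.266) and without any 1 day 0 or tumor library (0.284 to 1), with medians of -1.63 and of -0.62 to -1.53. Its median turned to 0.95 with first set guides alone (FDR 1). It held with the replicate block by label (0.155) and with both tumors in block 1 (0.173), as it did with DESeq2 (0.130) and limma (0.191). With second set guides alone it was 0.0474, and 1 without day 0 replicate 1, 0.243 without tumor 1 and 0.0247 without day 0 replicate 2 in settings chosen after seeing the data. In vitro FFAR1 passed with second set guides alone (0.163), but not without any 1 of the libraries compared (1) or with scaling to the non-targeting guides (0.255). On all 10 guides the FDR in vitro was 0.313, and 0.564 and 1 with the replicate blocks. Enrichment of TLR2 in vitro ran from 0.0873 to 1 with each library left out. AGTR1 and ACKR4 were called in no setting run. Of the 40 guides, edgeR called 0 in each comparison. Fitted to the 2 groups alone it called 4 lower and 2 higher in vitro, DESeq2 2 lower in vitro and 4 lower and 7 higher in vivo, limma 2 lower in vitro and 4 lower in vivo, and edgeR scaled to the non-targeting guides 2 lower in vivo. With each library left out, 0 to 6 were called lower and 0 to 9 higher in vivo, and 0 to 2 lower and 0 to 5 higher for tumors against day 14. The highest counts came without a tumor, which leaves 1 tumor that is assumed to vary like the other groups. Leaving out a tumor also changed the in vitro calls of FFAR1 and TLR2 guides, although no tumor library enters that comparison. Shares of all guides called were given above for the main fit and DESeq2 only. Under the other settings the counts of called guides were not compared with the whole library. The cause of the differences between settings was not tested. The replicate block changed no call of the 4 receptors. Depth limits the rarest guide, which had 2 to 13 counts in the late libraries.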
